A study of Mus musculus with 24 samples.

Results

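Nodal, Gdf3, Tdgf1, Acvr1b, Acvr1c, Acvr2a, Acvr2b and Foxh1 encode the ligands, the co-receptor, the receptors and the DNA-binding cofactor of Nodal signalling, and chromatin accessibility was followed at these 8 genes in mouse E14 embryonic stem cells. Members were all intervals of the authors' 2 tables that overlapped the RefSeq body of 1 of these genes extended by 20 kb on each side. They numbered 134 of 299780 intervals in the table of untreated cells (Ctrl) and 137 of 272268 in the table of cells under mTOR inhibition (Paused). The method was ATAC-seq, in which the transposase Tn5 inserts sequencing adapters into open chromatin, on 50000 live cells per library.

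All cells were kept in medium with fetal bovine serum and LIF (leukemia inhibitory factor) on plates coated with gelatin. There were 3 lines: wild type (WT), Smad2_KO1 and Smad2_KO2, the last 2 being Smad2 knockouts (KO). Each line was collected without inhibitor (Ctrl) and after 12 hours with INK128, an mTOR inhibitor, at 200 nM (Paused). Each of the 6 groups had 4 libraries, 24 in all. The labels do not say how Smad2 was disrupted, whether each KO line grew from 1 cell, or whether the 4 libraries of a group came from separate cultures, so p-values measure the spread between these libraries, which may be technical. The series asks, by its title, how Nodal and Smad2 signalling bears on developmental pausing, and the comparison its design allows at these genes is each KO line against WT within a treatment.

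Nodal is a secreted ligand of the TGF-beta family that keeps the epiblast pluripotent and patterns the early embryo. It binds activin receptors, type II (Acvr2a, Acvr2b) and type I (Acvr1b, also called ALK4, and Acvr1c, also called ALK7), together with the co-receptor Tdgf1 (Cripto), and the type I kinase phosphorylates Smad2 and Smad3. Phosphorylated Smads enter the nucleus with Smad4, reach DNA partly through the forkhead factor Foxh1, and Nodal itself is among their targets through enhancers outside and inside the gene. Gdf3 is a related ligand that is expressed in pluripotent cells and also uses Tdgf1 as co-receptor.

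Library values are normalized signal, reads in an interval divided by 1 factor per library, and all intervals described here are 201 bases wide, so levels of different intervals can be set side by side. Libraries held 11.8 to 16.5 M reads in intervals in Ctrl and 11.5 to 20.0 M in Paused, where WT libraries were the shallowest (11.5 to 14.8 M, against 14.9 to 17.1 M for Smad2_KO1 and 13.2 to 20.0 M for Smad2_KO2). The KO lines resembled each other closely: by a chi-square test of their reads, 3 of 4 Smad2_KO1 libraries in Ctrl and 4 of 4 in Paused lay nearest to the Smad2_KO2 library of their own number. Replicate 2 of both lines in Paused differed by no more than sampling noise (chi-square per degree of freedom 1.001, noise limit 1.0055). Both KO lines were also tested against the same 4 WT libraries, so that passing in both is not 2 independent results. At Smad2 itself, all of the 7 intervals in Ctrl and 11 in Paused kept signal in the KO lines, at 0.893 to 2.3 times the WT mean, and its accessibility therefore does not check the knockout. Of the 6 stem cell markers, the strongest intervals had a median signal of 313.7 in Ctrl and 384.2 in Paused, with Pou5f1 lowest (44.9 and 71.4). Markers of primitive endoderm, trophoblast, fibroblasts and neural cells had intervals too, at 22.3 to 274.5 in Ctrl, so accessibility alone did not separate these cell types. The summed fibroblast markers (4 of 4 with an interval, with intervals of 1 gene in Ctrl and 2 in Paused called lower) were 444.3 to 454.0 in WT, 365.0 to 393.9 in Smad2_KO1 and 378.2 to 414.9 in Smad2_KO2 in Ctrl. In Paused they were 588.2 to 704.9, 497.5 to 556.3 and 487.4 to 562.3. The summed trophoblast markers (3 of 3 with an interval, 0 called) were 561.0 to 715.7 in WT, 514.1 to 527.4 in Smad2_KO1 and 491.7 to 563.4 in Smad2_KO2 in Paused, and in Ctrl their ranges overlapped. The summed stem cell, primitive endoderm and neural markers had overlapping ranges in WT and both KO lines in both treatments, with 1 stem cell marker called higher in Paused. The part of any of these lists in the results was not tested.

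To show what the chromatin at the start sites looks like in sequence, the bases just before the RefSeq start of 5 of these genes are printed below, 5′ to 3′ on the strand of the gene (GRCm38.p6). Nodal and Tdgf1 are shown because no interval of either table overlapped the stretch from 250 bases before to 50 bases after their start, Acvr1b because its start-site interval was lower in the KO lines in Paused, and Acvr2b and Acvr2a because theirs were not called. For the Acvr genes the printed bases are those that the Paused interval covers. Capitals mark a Smad box (CAGAC, or GTCTG on the other strand).
Nodal, chr10:61417722-61417971, + strand: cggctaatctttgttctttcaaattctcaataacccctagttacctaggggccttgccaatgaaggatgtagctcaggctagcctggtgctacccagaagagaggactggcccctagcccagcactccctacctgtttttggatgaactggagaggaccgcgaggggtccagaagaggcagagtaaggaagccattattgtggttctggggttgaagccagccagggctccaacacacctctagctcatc
Tdgf1, chr9:110946159-110946408, - strand: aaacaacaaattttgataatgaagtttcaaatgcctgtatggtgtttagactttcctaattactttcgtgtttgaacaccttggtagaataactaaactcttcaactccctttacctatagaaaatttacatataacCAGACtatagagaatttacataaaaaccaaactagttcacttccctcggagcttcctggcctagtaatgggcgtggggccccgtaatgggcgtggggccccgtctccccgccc
Acvr1b, chr15:101173822-101174015, + strand: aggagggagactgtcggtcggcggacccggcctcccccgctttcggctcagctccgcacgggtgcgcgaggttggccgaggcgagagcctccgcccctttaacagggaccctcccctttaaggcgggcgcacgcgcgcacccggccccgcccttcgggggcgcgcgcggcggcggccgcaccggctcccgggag
Acvr2a, chr2:48813909-48814108, + strand: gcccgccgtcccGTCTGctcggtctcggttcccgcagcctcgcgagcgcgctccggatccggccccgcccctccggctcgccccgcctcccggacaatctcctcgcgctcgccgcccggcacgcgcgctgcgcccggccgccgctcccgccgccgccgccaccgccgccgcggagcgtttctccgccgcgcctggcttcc
Acvr2b, chr9:119401928-119402099, + strand: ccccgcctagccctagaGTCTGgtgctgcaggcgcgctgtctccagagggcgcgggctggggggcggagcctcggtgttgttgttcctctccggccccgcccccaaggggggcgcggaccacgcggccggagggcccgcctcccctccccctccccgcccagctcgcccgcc

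The start-site sequences fell into 2 kinds. Over the whole 300-base window, the start of Nodal was 54.0% G and C with 5 CpG pairs and that of Tdgf1 41.7% with 7, against a median of 56.3% G and C over 21262 RefSeq promoters. Acvr2a (80.3%, 54 CpG), Acvr1b (79.7%, 51 CpG) and Acvr2b (73.3%, 27 CpG) were of the CpG-rich kind, as was the outer start of Acvr1c (79.0%, 39 CpG), while its inner start had 50.3% and 2 CpG. On either strand, the Smad box was found once each in Tdgf1, Acvr2a and Acvr2b and in 48.4% of all promoters. The Foxh1 motif AATCCACA (in 0.776% of all) and the Smad palindrome GTCTAGAC (in 0.226%) were in none of the 6 members' promoters that the RefSeq table holds, and the Smad GC box GGCGCC (in 15.3%) was in that of Acvr1b only, outside the printed bases. A match describes letters, not binding, and the absence of one says only that these letters are not in this window.

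Across all members, few intervals were called different between Smad2 KO cells and WT. An interval was called in both KO lines when its adjusted p (limma on log2(signal + 1), Benjamini-Hochberg over all tested intervals of the table) was under 0.05 against WT in each line, with the same sign. Of 128 member intervals tested in Ctrl, 6 were called (4.69%), against 7.15% of all intervals, with 4 higher (3.95% of all intervals) and 2 lower (3.2% of all). In Paused 17 of 134 were called (12.7%), against 13.9% of all, with 9 higher (9.01% of all) and 8 lower (4.92% of all). The members as a whole were thus called about as often as any interval. Their median log2 fold change, 0.07 in Ctrl and 0.10 in Paused, lay beside 0.08 and 0.12 for all intervals. WT and KO libraries did not overlap at each of the 6 Ctrl calls and at 9 of the 17 Paused calls, and, called or not, at 9 of 128 tested members in Ctrl and 11 of 134 in Paused, against 7.48% and 11.5% of all tested intervals. Without replicate 2 of Smad2_KO1, one of the 2 libraries in Paused that differed by sampling noise only, the Paused calls were 7 higher and 5 lower, and without replicate 2 of Smad2_KO2 they were 6 higher and 4 lower. With the KO libraries of each number averaged into 1 they were 11 higher and 10 lower. Of all Paused intervals, 9.74%, 9.68% and 18.9% were called in these settings, in the same order. In the authors' deposited table, which compares the 8 KO libraries with WT, 12 members in Ctrl and 27 in Paused had a false discovery rate under 0.05 (12.2% and 21.6% of all intervals), and these include all 6 and all 17 intervals called here. Between the KO lines limma called 0 members in either treatment (0.0% of all intervals), with 3 in Ctrl and 5 in Paused at an unadjusted p under 0.05, and edgeR and DESeq2 on the recovered reads also called 0. Over all intervals, 9247 of 282089 in Ctrl and 5124 of 260539 in Paused had such an unadjusted limma p between the KO lines.

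**Figure D1:**
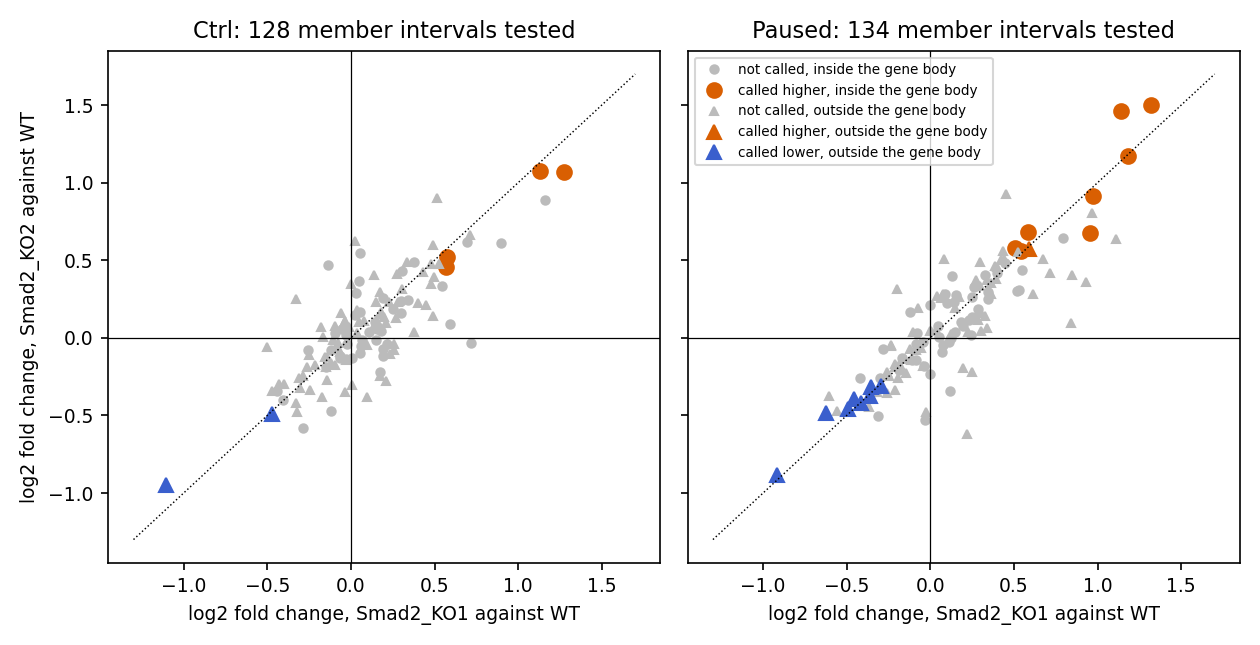
Each point is a member interval, with its log2 fold change against WT in Smad2_KO1 (x) and in Smad2_KO2 (y), on the log2(signal + 1) scale. Circles lie inside the gene body and triangles outside, and colour marks the 6 Ctrl and 17 Paused intervals called in both lines, which lie close to the dotted line of equal change.

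The direction of the calls went with position inside or outside the member's own gene body. Inside the member gene bodies all calls were higher in the KO lines: 4 of 50 tested intervals in Ctrl and 8 of 54 in Paused, where 3.64% and 9.22% of all intervals inside coding gene bodies were called higher, and 2.81% and 4.54% lower. Outside the member bodies the calls were 2 lower and 0 higher of 78 in Ctrl and 8 lower and 1 higher of 80 in Paused. Many of these intervals lie in another coding gene: 47 tested in Ctrl, with 0 calls, and 49 in Paused, with 1 higher and 2 lower. In no coding gene body lay 31 tested in each treatment, with 2 lower and 0 higher in Ctrl and 6 lower and 0 higher in Paused. Of all intervals outside coding bodies, 3.65% and 5.37% were called lower and 4.3% and 8.77% higher. At an unadjusted p under 0.05 in both lines, 7 intervals inside bodies were higher and 0 lower in Ctrl, and 11 higher and 2 lower in Paused. Outside bodies these counts were 3 higher and 5 lower in Ctrl, and 6 higher and 14 lower in Paused. For these and the unadjusted counts below, no share over all intervals is given, so they cannot be set against a background. With DESeq2 size factors, TMM factors, or edgeR or DESeq2 on recovered reads, the calls inside bodies in Paused were 5 higher and 2 lower. In Ctrl these settings gave 0 lower calls inside bodies. Lower calls inside bodies in Paused also appeared with the 8 KO libraries as 1 group (11 higher, 2 lower) and without WT replicate 3 (7 higher, 2 lower). By role, the ligands and co-receptor had 2 lower and 0 higher calls of 46 in Ctrl and 4 lower and 0 higher of 50 in Paused, and the receptors had 4 higher and 0 lower of 71 in Ctrl and 9 higher and 3 lower of 72 in Paused. Over all intervals 3.2% were lower and 3.95% higher in Ctrl, and 4.92% and 9.01% in Paused, so these counts of a few intervals are not far from the background. At an unadjusted p under 0.05 in both lines the ligands and co-receptor had 1 higher and 4 lower in Ctrl and 2 higher and 6 lower in Paused, and the receptors 8 higher and 1 lower in Ctrl and 14 higher and 7 lower in Paused. The receptors' majority of higher calls in Paused depended on the scaling: they had 6 higher and 7 lower with DESeq2 size factors, TMM factors or edgeR, and 5 and 5 with DESeq2 on recovered reads. Position and role cannot be told apart here, because the receptor genes are long and hold 48 of the 53 Ctrl intervals inside a body.

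Signal level moved with the direction as well. All lower calls lay in the 3 highest of 10 level classes of all intervals, where 8 of 57 tested members were lower in Paused (11.1% of all such intervals were lower, 6.31% higher) and 2 of 53 in Ctrl (5.7% lower, 4.09% higher). In the 2 classes between, 0 of 16 members in Ctrl and 0 of 19 in Paused were lower (3.07% and 3.46% of all) and 0 and 1 higher (5.75% and 12.4% of all). In the 5 lowest classes 5 of 58 members were higher in Paused (9.29% of all, with 1.78% lower) and 2 of 59 in Ctrl (3.14%, with 1.75% lower). Over all intervals the median log2 fold change fell with the level, in Ctrl from 0.24 in the lowest class to -0.07 in the highest, and in Paused from 0.39 to -0.14. Members followed it, with medians of 0.17 and 0.24 in the 5 lowest classes and -0.05 and -0.11 in the 3 highest, in Ctrl and Paused. DESeq2 size factors moved the median of all intervals to 0.01 in Ctrl and 0.02 in Paused, and the split of the member calls from 4 higher and 2 lower to 2 and 3 in Ctrl, and from 9 and 8 to 6 and 15 in Paused. The calls of all intervals moved the same way, from 11132 higher and 9027 lower to 7996 and 13386 in Ctrl. In Paused they went from 23477 higher and 12816 lower to 15653 and 22545. Of the 23 calls, 1 in Ctrl and 8 in Paused were called under each of the 23 alternative settings run for them, and beside these 9 the median change of all intervals of the same level class is given below.

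**Figure D2:**
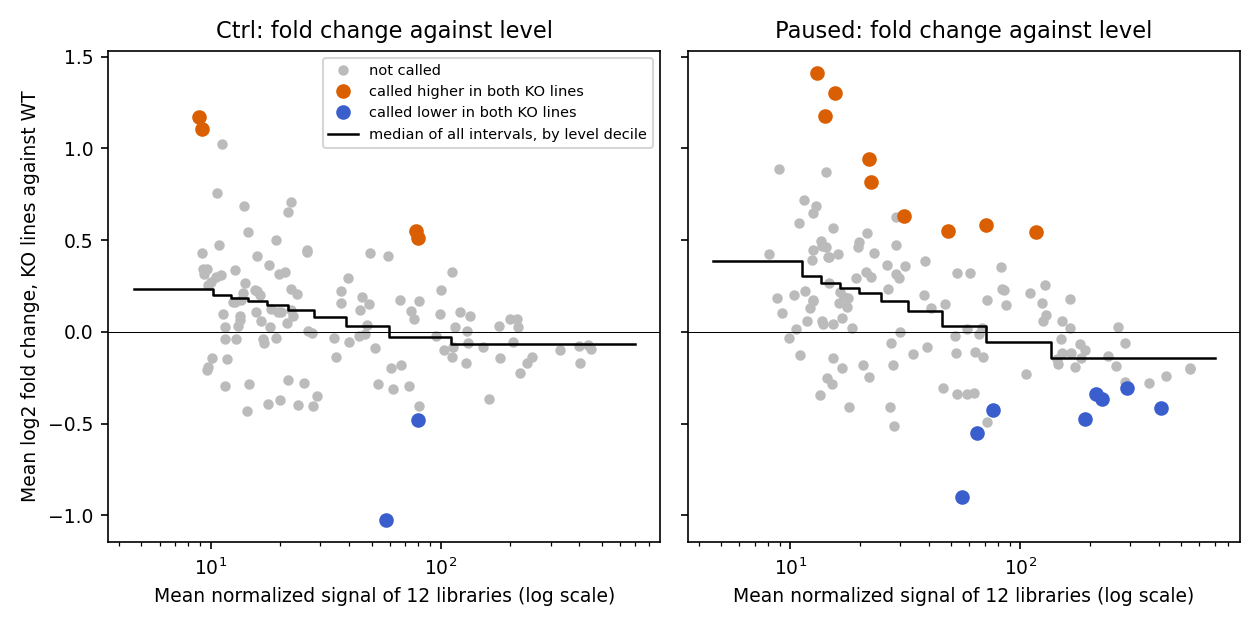
Each point is a member interval, with its mean signal over 12 libraries on a log axis (x) and its mean log2 fold change of the KO lines against WT (y). The black steps are the medians of all intervals in 10 level classes, which run from above 0 at low signal to below 0 at high signal, and the Nodal interval at -1.02 (Ctrl) and -0.90 (Paused) lies farthest below them.

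Nodal (chr10:61417972-61425338, + strand) had 18 intervals in Ctrl and 20 in Paused, and the largest loss of signal at any member lay 11.8 kb before its start. This interval (chr10:61406037-61406237 in Ctrl) is 11735 bases before the gene body, in no coding gene. Its signal in Ctrl was 79.0, 69.0, 95.3 and 109 in the WT libraries, 44.5, 45.2, 29.99 and 41.6 in Smad2_KO1, and 46.1, 52.8, 44.6 and 36.2 in Smad2_KO2. Every WT library lay above every KO library. The log2 fold change was -1.10 ± 0.16 (SE, limma adjusted p = 7.52e-06) in Smad2_KO1 and -0.95 ± 0.16 (adjusted p = 8.54e-05) in Smad2_KO2, where intervals of its level had a median of 0.03. In Paused the matching interval (chr10:61406058-61406258) had 74.5, 66.6, 73.4 and 113 in WT, 44.7, 42.6, 43.2 and 37.7 in Smad2_KO1, and 39.9, 59.2, 30.3 and 47.04 in Smad2_KO2. Again the groups did not overlap, and the fold changes were -0.92 ± 0.17 (limma adjusted p = 0.000258) and -0.88 ± 0.17 (adjusted p = 0.000399), against a level median of 0.03. In the authors' deposited tables the log2 fold of this interval was -0.93 in Ctrl and -0.80 in Paused, with false discovery rates of 1.31e-09 and 8.39e-07. It was the only Nodal interval called in both treatments, and it was called under every alternative, with a larger limma, edgeR or DESeq2 adjusted p of at most 0.0014 in Ctrl and 0.00541 in Paused.

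A second upstream Nodal interval passed only in Paused. At 7.6 kb before the start (chr10:61410233-61410433) the WT libraries had 85.3, 77.3, 76.6 and 90.1, Smad2_KO1 48.5, 59.8, 39.7 and 68.5, and Smad2_KO2 58.9, 55.5, 58.4 and 61.3. The groups did not overlap, with log2 fold changes of -0.62 ± 0.15 (limma adjusted p = 0.00287) and -0.48 ± 0.15 (adjusted p = 0.0188). Without WT replicate 4 or Smad2_KO2 replicate 2 the call was lost, with a limma adjusted p (the larger of the 2 lines, as in all such values below) of 0.0504 and 0.0549. In Ctrl the matching interval (chr10:61410272-61410472) had means of 72.5, 60.8 and 67.7 for WT, Smad2_KO1 and Smad2_KO2. Its changes of -0.25 and -0.11 were not called (limma adjusted p = 0.264 and 0.685). The treatments come from tables that were normalized separately, and whether the KO effect differed between them was not tested.

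Past the end of Nodal, 1371 bases after the body (chr10:61426709-61426909), the Ctrl signal was 96.1, 94.95, 118 and 84.1 in WT, 67.5, 64.8, 74.0 and 75.1 in Smad2_KO1, and 64.1, 82.8, 62.7 and 68.4 in Smad2_KO2. The lowest WT library stood just above the highest KO library. The fold changes of -0.47 ± 0.14 (limma adjusted p = 0.018) and -0.49 ± 0.14 (adjusted p = 0.0135) were no longer called without WT replicate 3 or Smad2_KO1 replicate 1 or 2 (larger limma adjusted p = 0.0546 to 0.0845). In Paused an interval 178 bases nearer to the gene, too far off to match, had means of 52.8, 43.9 and 41.2 in WT, Smad2_KO1 and Smad2_KO2 and was not called.

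The strongest Nodal intervals changed less than these weaker ones. In Ctrl the highest, 1.9 kb before the start (chr10:61416009-61416209), had 450, 382, 416 and 403 in WT, 386, 361, 425 and 409 in Smad2_KO1, and 378, 386, 385 and 397 in Smad2_KO2. These groups overlapped, and the changes of -0.06 and -0.09 were not called (limma adjusted p = 0.675 and 0.519). The Paused means were 481 ± 53.3 (SD, n = 4), 400 ± 40.4 and 412 ± 45.7, with changes of -0.26 (limma adjusted p = 0.0338) and -0.22 (adjusted p = 0.0733), so it passed in 1 KO line only. Inside the gene body, the interval 5.5 kb after the start had means of 194, 209 and 199 in Ctrl and 263, 272 and 263 in Paused for WT, Smad2_KO1 and Smad2_KO2, and the means of the other 2 intervals of the body lay between 16.4 and 28.2. The intervals in the body, like those of Tdgf1 away from its call, were singled out after their values were seen.

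**Figure D3:**
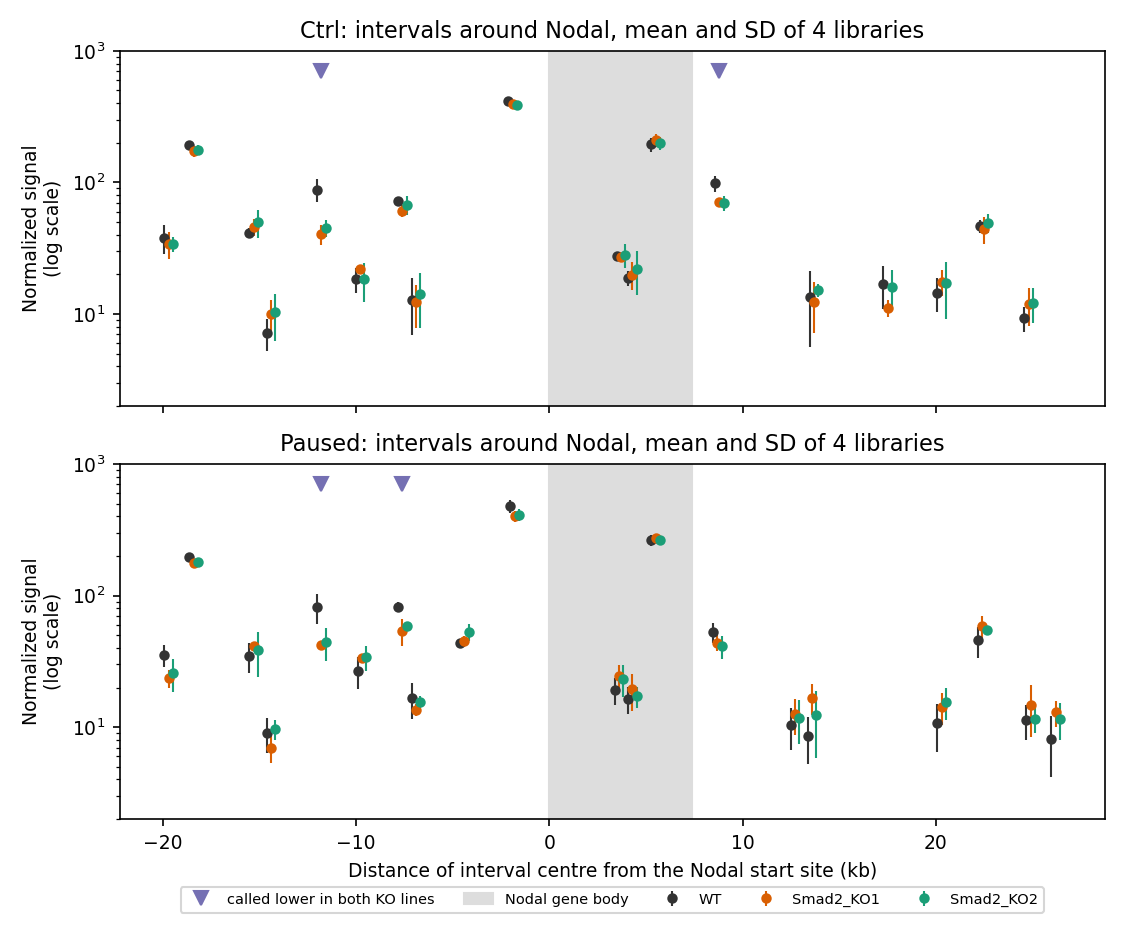
Mean signal and SD of 4 libraries per line on a log axis, for each interval around Nodal, against the distance of its centre from the start site; grey marks the gene body and triangles mark calls. At 11.8 kb before the start both KO lines lie near 40 to 45 and WT above 80 in both treatments, while at the strongest interval and in the gene body the 3 lines lie close together.

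Gdf3 (chr6:122605403-122610087) had 14 intervals in each table and 1 call, in Paused, at its strongest interval (chr6:122624594-122624794). That interval lies 14507 bases from the Gdf3 body and its nearest coding gene is Dppa3, a germ cell and naive pluripotency gene. Its Paused signal was 304, 371, 360 and 302 in WT, 282, 246, 253 and 306 in Smad2_KO1, and 226, 271, 269 and 314 in Smad2_KO2. The groups overlapped, and the changes of -0.30 ± 0.10 (limma adjusted p = 0.0273) and -0.31 ± 0.10 (adjusted p = 0.0213) were lost without WT replicate 2 or 3, Smad2_KO1 replicate 2 or 3, or Smad2_KO2 replicate 1 (larger limma adjusted p = 0.0603 to 0.127). With each library centred within classes of the same level the change was -0.15 (limma adjusted p = 0.32). In Ctrl the same interval had means of 264, 246 and 234 and was not called. Of the Gdf3 body itself, each table held 1 interval, with WT means of 257 in Ctrl and 123 in Paused at different positions, and neither was called. In Ctrl 0 of the 14 intervals were called by limma, with 2 at an unadjusted p under 0.05 in both lines, and edgeR and DESeq2 called 0.

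Tdgf1 (chr9:110939608-110946158, - strand) lost signal at its strongest interval in Paused. The interval lies 1217 bases before the gene (chr9:110947375-110947575). The WT libraries had 519, 496, 456 and 483, Smad2_KO1 353, 353, 352 and 411, and Smad2_KO2 345, 330, 376 and 412. No KO library reached the lowest WT library, and the log2 fold changes were -0.41 ± 0.08 (limma adjusted p = 0.000527) and -0.42 ± 0.08 (adjusted p = 0.000459), where intervals of this level had a median of -0.14. With libraries centred within level classes the change was -0.25 and was still called (larger limma adjusted p = 0.0101), and the call held without each library in turn. In Ctrl the matching interval (chr9:110947430-110947630) had 446, 442, 438 and 417 in WT, 378, 386, 398 and 412 in Smad2_KO1, and 364, 357, 392 and 421 in Smad2_KO2. Its changes of -0.15 (limma adjusted p = 0.245) and -0.19 (adjusted p = 0.133) were not called, with 1 KO library above the lowest WT library.

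The rest of the Tdgf1 window was mostly level between the lines. Inside the gene body only the Paused table had intervals, 4 of them, the strongest 1.7 kb after the start with means of 154, 137 and 141 in WT, Smad2_KO1 and Smad2_KO2. Toward Lrrc2, the neighbouring gene, the interval 19.1 kb before the Tdgf1 start had means of 215, 213 and 224 in Ctrl and 256, 236 and 233 in Paused. After the gene, 7.6 kb from the start, a Ctrl interval with means of 97.9, 69.1 and 75.4 passed the authors' deposited test (false discovery rate 0.0201) but was not called in both lines. Of the 14 Tdgf1 intervals of Ctrl limma called 0, with 1 at an unadjusted p under 0.05 in both lines; DESeq2 on the recovered reads called 0 and edgeR 1, the interval 7.6 kb after the start (lower).

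**Figure D4:**
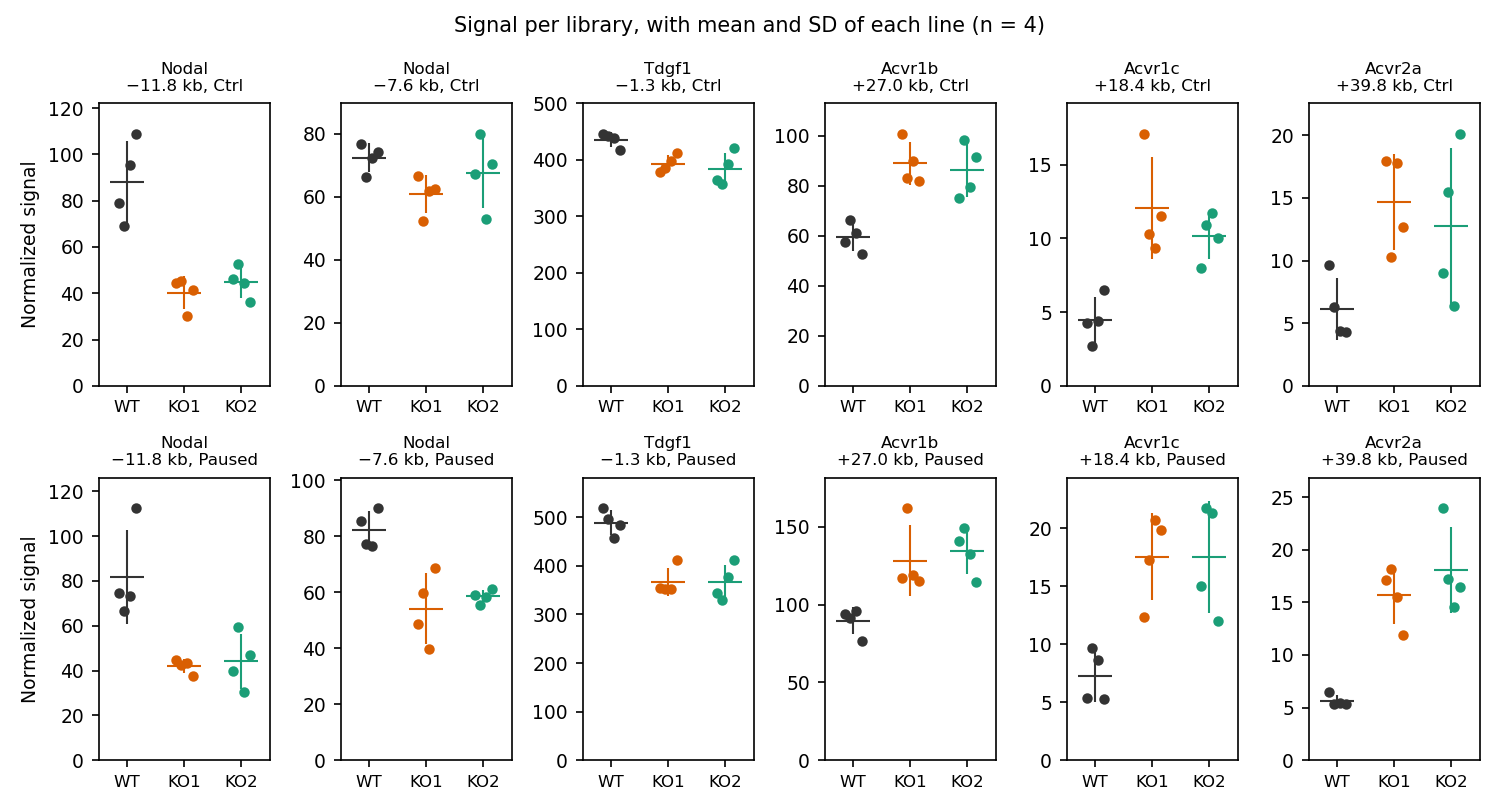
Signal of each library (points), with the mean and SD of each line, at 6 intervals chosen among the Paused calls (bottom) and at their matching intervals in Ctrl (top). Every axis starts at 0. WT lies above both KO lines at Nodal 11.8 kb before the start and below both at Acvr1b and Acvr1c in both treatments, and at Tdgf1 the gap between WT and the KO lines is clear of overlap in Paused only.

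Acvr1b (chr15:101174072-101213684, + strand), the type I receptor kinase of Nodal and activin, had calls in both directions. Its steadiest gain lay inside the body, 27.0 kb after the start (chr15:101200982-101201182 in Ctrl). There the Ctrl signal was 57.7, 66.3, 61.3 and 52.8 in WT, 101, 83.3, 90.0 and 82.0 in Smad2_KO1, and 75.2, 98.3, 79.7 and 91.6 in Smad2_KO2. All KO libraries lay above all WT libraries, with log2 fold changes of 0.57 ± 0.14 (limma adjusted p = 0.00343) and 0.52 ± 0.14 (adjusted p = 0.00804). In Paused (chr15:101200979-101201179) the values were 93.9, 91.2, 96.0 and 76.8 in WT, 117, 162, 119 and 115 in Smad2_KO1, and 141, 149, 132 and 115 in Smad2_KO2. The fold changes there were 0.51 ± 0.12 (limma adjusted p = 0.00334) and 0.58 ± 0.12 (adjusted p = 0.000968), where intervals of its level had a median of -0.06, and only DESeq2 on the recovered reads ended the Ctrl call (adjusted p = 0.0541).

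A weak Acvr1b interval 37.3 kb after the start (chr15:101211283-101211483), present in the Paused table only, had 4.32, 10.7, 8.63 and 6.62 in WT, 11.4, 18.1, 20.7 and 19.9 in Smad2_KO1, and 19.0, 19.5, 26.9 and 21.9 in Smad2_KO2. The lowest KO library stood above the highest WT library, and the changes were 1.14 ± 0.29 (limma adjusted p = 0.00419) and 1.46 ± 0.29 (adjusted p = 0.000388), with a median of 0.265 at this level. Of its WT libraries, only the one at 10.7 reached the minimum signal for testing. This interval was therefore tested only because its KO libraries were high. Another at 18.5 kb rose by 0.96 and 0.68 in Paused, with WT replicates 1 and 4 and Smad2_KO2 replicates 1 and 2 each ending the call when left out (larger limma adjusted p = 0.069 to 0.104). DESeq2 size factors ended it too (limma adjusted p = 0.0609).

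The Acvr1b start-site interval (chr15:101173815-101174015, most of it in the sequence printed above) was lower in Paused. Its signal was 308, 216, 196 and 281 in WT, 204, 175, 191 and 199 in Smad2_KO1, and 220, 189, 187 and 195 in Smad2_KO2. WT spread widely and overlapped both KO lines, and the changes of -0.36 ± 0.11 (limma adjusted p = 0.0183) and -0.32 ± 0.11 (adjusted p = 0.0361) were lost without any of 6 libraries (WT replicate 1 or 4, Smad2_KO1 replicate 2, Smad2_KO2 replicate 2, 3 or 4; larger adjusted p = 0.0657 to 0.184) and with libraries centred within level classes (-0.20, limma adjusted p = 0.224). In Ctrl its means of 160 ± 36.1, 140 ± 21.2 and 160 ± 34.2 (SD, n = 4) in WT, Smad2_KO1 and Smad2_KO2 overlapped. The interval 9.6 kb before the start (chr15:101164379-101164579), in the Paused table only, had means of 267, 206 and 205 and changes of -0.36 and -0.37 (limma adjusted p = 0.0183 and 0.0142). It was lost without WT replicate 1, Smad2_KO1 replicate 1 or 3, or Smad2_KO2 replicate 2 (larger limma adjusted p = 0.0608 to 0.118). The strongest Ctrl interval (chr15:101221865-101222065) lay past the gene. All its KO libraries (181 to 225) lay below all WT libraries (227 to 258). Its changes of -0.265 and -0.187 were not called (limma adjusted p = 0.0639 and 0.22). The authors' false discovery rate was 0.0433, and 0.00211 at the matching Paused interval, also not called. The strongest Paused interval, 50.1 kb after the start, changed by -0.063 without a call.

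Acvr1c (chr2:58267453-58357896, - strand), the other type I receptor, was sparse, with 9 intervals in Ctrl and 7 in Paused over 130.4 kb and all of them inside the gene. The call lay in both treatments 18.4 kb after the outer start, at an interval of low signal (chr2:58339261-58339461 in Ctrl). In Paused (chr2:58339245-58339445) the WT libraries had 5.4, 9.66, 8.63 and 5.3, Smad2_KO1 12.4, 17.2, 20.7 and 19.9, and Smad2_KO2 15.0, 21.8, 21.3 and 12.0. No WT library reached the lowest KO library, and the fold changes were 1.18 ± 0.30 (limma adjusted p = 0.00402) and 1.17 ± 0.30 (adjusted p = 0.00456), where intervals of its level had a median of 0.30. In Ctrl the values were 4.27, 2.69, 4.38 and 6.47 in WT, 17.1, 10.3, 9.37 and 11.6 in Smad2_KO1, and 8.02, 10.9, 11.7 and 10.1 in Smad2_KO2. The groups did not overlap there either, but the Ctrl call (1.27 and 1.07, limma adjusted p = 0.0156 and 0.0473) held without WT replicate 4 and was lost without each of the other 11 libraries (larger limma adjusted p = 0.0519 to 0.115). In both treatments no WT library reached 10, the minimum for testing, so this interval was tested only because its KO libraries were high. The start-site intervals of Acvr1c were not called: the inner one had means of 96.0, 100 and 90.4 in Ctrl and 113, 135 and 135 in Paused in WT, Smad2_KO1 and Smad2_KO2, and the outer one 73.7, 81.7 and 73.1 in Ctrl and 99.8, 111 and 120.7 in Paused. The strongest Ctrl interval (chr2:58282619-58282819) had a WT mean of 113.7, and its mean change of 0.025 was not called.

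Acvr2a (chr2:48814109-48903264, + strand), a type II receptor, had its calls deep inside the gene and all of them higher. In Paused the interval 39.8 kb after the start (chr2:48853823-48854023) showed the largest change of any Paused member, by the smaller of the changes in the 2 lines. It had 6.48, 5.37, 5.39 and 5.3 in WT, 17.1, 18.1, 15.6 and 11.9 in Smad2_KO1, and 24.0, 17.3, 14.6 and 16.4 in Smad2_KO2. The KO libraries lay far above WT, with changes of 1.32 ± 0.29 (limma adjusted p = 0.00144) and 1.503 ± 0.29 (adjusted p = 0.000379), where intervals of its level had a median of 0.30. No WT library reached 10, the minimum for testing, so this interval was tested only because its KO libraries were high. In Ctrl the matching interval had means of 6.14, 14.7 and 12.8, and passed in Smad2_KO1 only (1.16, limma adjusted p = 0.0205, against 0.89, adjusted p = 0.0881, in Smad2_KO2). In Ctrl 2 other Acvr2a intervals were called. The one at 51.7 kb had means of 62.0, 91.9 and 86.0, changes of 0.57 and 0.46 (limma adjusted p = 0.00529 and 0.0274), and lost its call with DESeq2 on the recovered reads and without WT replicate 3 or 4 or Smad2_KO2 replicate 1 or 2 (larger limma adjusted p = 0.064 to 0.159). In Paused it had means of 74.2, 90.6 and 85.4 and was not called. The one at 54.8 kb, with means of 4.59, 12.1 and 10.7, kept its call only without WT replicate 2 or Smad2_KO1 replicate 3 (larger limma adjusted p = 0.0532 to 0.193 without each of the other 10). Its WT mean also lay below the minimum for testing, which it passed through its KO libraries. The start-site interval of Acvr2a did not change detectably, with means of 129 ± 21.7, 131 ± 17.0 and 142 ± 14.8 in Ctrl and 156 ± 49.5, 146 ± 11.3 and 147 ± 13.3 in Paused (SD, n = 4).

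Acvr2b (chr9:119401583-119442148, + strand), the other type II receptor, had 0 calls of 26 tested intervals in Ctrl and 5 of 29 in Paused. In Ctrl 2 intervals had an unadjusted limma p under 0.05 in both lines, DESeq2 on the recovered reads called 0, and edgeR called 1, the interval in Exog described below (lower). The gain that held under every alternative was 24.2 kb after the start (chr9:119426270-119426470), with 14.0, 16.1, 10.8 and 11.9 in WT, 22.8, 26.3, 31.1 and 26.8 in Smad2_KO1, and 25.0, 31.5, 22.4 and 24.1 in Smad2_KO2. WT and KO libraries did not overlap, and the changes were 0.97 ± 0.22 (limma adjusted p = 0.00187) and 0.92 ± 0.22 (adjusted p = 0.00329), with a level median of 0.21. In Ctrl the means were 15.1, 18.9 and 19.9, without a call. Near the end of the window, 2623 bases past Acvr2b and in the neighbouring gene Exog, signal was lower (chr9:119444771-119444971): 262, 224, 189 and 274 in WT, 160, 160, 168 and 178 in Smad2_KO1, and 174, 160, 157 and 196 in Smad2_KO2. One KO library exceeded the lowest WT library, and the changes of -0.50 ± 0.11 (limma adjusted p = 0.00113) and -0.46 ± 0.11 (adjusted p = 0.00253) held under every alternative, against a level median of -0.14. In Ctrl it passed in Smad2_KO1 only (-0.43, limma adjusted p = 0.00898, against -0.30, adjusted p = 0.0827).

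Of the other Acvr2b calls in Paused, the one in the neighbouring gene Xylb, 19.4 kb before the start, had means of 53.5, 79.9 and 79.4 and was lost with DESeq2 on the recovered reads (adjusted p = 0.0744). Those at 12.3 and 16.0 kb inside the gene were higher by 0.54 and 0.56 and by 0.58 and 0.68. The first was lost without WT replicate 1 or 4, Smad2_KO1 replicate 2 or 3, or Smad2_KO2 replicate 2, 3 or 4 (larger limma adjusted p = 0.0533 to 0.144), and the second without WT replicate 2 or 3, Smad2_KO1 replicate 2, 3 or 4, or Smad2_KO2 replicate 2 (larger limma adjusted p = 0.0526 to 0.154). The start-site interval was the strongest of the gene, with means of 344, 328 and 313 in Ctrl. In Paused it had 493, 376, 329 and 458 in WT, 327, 305, 346 and 351 in Smad2_KO1, and 344, 304, 344 and 380 in Smad2_KO2. It passed in Smad2_KO1 (-0.30, limma adjusted p = 0.0233) and missed in Smad2_KO2 (-0.26, adjusted p = 0.0522), with overlapping libraries.

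Foxh1 (chr15:76667829-76671614), the forkhead partner of the Smads, had its strongest own interval across 1 end of the gene body (chr15:76671516-76671716), and it was not called. The Ctrl signal was 485, 469, 423 and 507 in WT, 470, 383, 485 and 463 in Smad2_KO1, and 430, 425, 463 and 419 in Smad2_KO2. The lines overlapped, with changes of -0.07 and -0.12 (limma adjusted p = 0.66 and 0.412). In Paused the means were 602 ± 90.1, 524 ± 30.7 and 516 ± 6.14 (SD, n = 4), with changes of -0.19 and -0.21 (limma adjusted p = 0.0942 and 0.0631), although the authors' deposited test of the 8 KO libraries gave it a false discovery rate of 0.0183. The strongest Paused interval of the window (chr15:76659739-76659939) lay outside the gene, with a WT mean of 602.2 and a mean change of -0.198. It was not called (larger limma adjusted p = 0.105), with an authors' false discovery rate of 0.0262. The 1 call of the window, in Paused, lay 4402 bases away in Ppp1r16a (chr15:76676016-76676216), with means of 91.9, 66.7 and 69.9 and changes of -0.46 and -0.39 (limma adjusted p = 0.0175 and 0.0405). It was lost without WT replicate 1 or 2, Smad2_KO1 replicate 2 or 3, or Smad2_KO2 replicate 2, 3 or 4 (larger limma adjusted p = 0.0554 to 0.128). In Ctrl limma called 0 of 11 intervals, with 1 at an unadjusted p under 0.05 in both lines, and edgeR and DESeq2 called 0.

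Ctrl and Paused were compared by position. One to one, 102 intervals matched (at least 50% of each covered by the other), 97 were tested in both tables, and 81 of these (83.5%) had the same sign of mean change, against 77.9% of all matched intervals. Of the 6 Ctrl calls 4 had a match, and 3 were called in both treatments: Nodal at 11.8 kb before the start (lower), Acvr1b at 27.0 kb and Acvr1c at 18.4 kb after it (higher). Over all intervals, 59.2% of the matched Ctrl calls were also called in Paused in the same direction. Of the 17 Paused calls 15 had a match, and all 15 had the same sign in Ctrl, as had 97.1% of all matched Paused calls. Agreement in sign at the members was thus near that of all intervals, and 0 members were called in opposite directions.

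Summed over each gene's window, the changes were small. In Ctrl limma called 0 of the 8 member windows in both KO lines (8.34% of all coding genes' windows were called, 3.35% higher and 4.99% lower), with 0 at an unadjusted p under 0.05 in both lines, and Acvr2a passed in Smad2_KO1 only (0.25 ± 0.08, adjusted p = 0.0244). In Paused 4 of 8 were called, against 27.1% of all windows (6.59% higher, 20.5% lower). The windows of Tdgf1 (-0.18 and -0.16, limma adjusted p = 0.00538 and 0.0113), Foxh1 (-0.17 and -0.17, 0.0137 and 0.0124) and Nodal (-0.13 and -0.12, 0.0323 and 0.0387) were lower, and that of Acvr1c (0.22 and 0.28, 0.0187 and 0.00281) was higher. These sums include neighbouring genes: Lrrc2 at Tdgf1, Eif4ebp2 at Nodal, and Cyhr1, Kifc2 and Ppp1r16a at Foxh1. The member was the nearest coding gene for 7 of 17 Paused intervals at Tdgf1, 12 of 20 at Nodal, 1 of 12 at Foxh1 and 7 of 7 at Acvr1c. The Paused Tdgf1 sums were 1549, 1559, 1514 and 1474 in WT, 1312, 1297, 1394 and 1394 in Smad2_KO1, and 1268, 1293, 1418 and 1499 in Smad2_KO2. The Paused Acvr1c sums were 396, 330, 415 and 352 in WT, 389, 437, 485 and 430 in Smad2_KO1, and 431, 448, 485 and 446 in Smad2_KO2. For both genes 1 or more KO libraries overlapped the WT range. The median change of all windows was -0.02 in Ctrl and -0.05 in Paused. DESeq2 size factors moved it to -0.09 and -0.15, ended the Acvr1c call (0.15), and added Nodal as lower in Ctrl (-0.19) and Acvr1b (-0.17), Gdf3 (-0.16) and Acvr2b (-0.17) as lower in Paused. Under that scaling 6 of 8 member windows were lower in Paused and 0 higher, where 50.5% of all windows were called. Leaving out 1 library ended the Nodal call for WT replicate 1 or 4, Smad2_KO1 replicate 1, 2 or 3, or Smad2_KO2 replicate 1, 2 or 3 (larger limma adjusted p = 0.0705 to 0.121), and the Foxh1 call for WT replicate 1 or 4 or Smad2_KO1 replicate 2 (0.0696 to 0.106). The Acvr1c call ended without WT replicate 2 or 4 or Smad2_KO1 replicate 3 (0.0572 to 0.116), and the Tdgf1 call without Smad2_KO2 replicate 1 or 2 (0.0613 to 0.081).

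**Figure D5:**
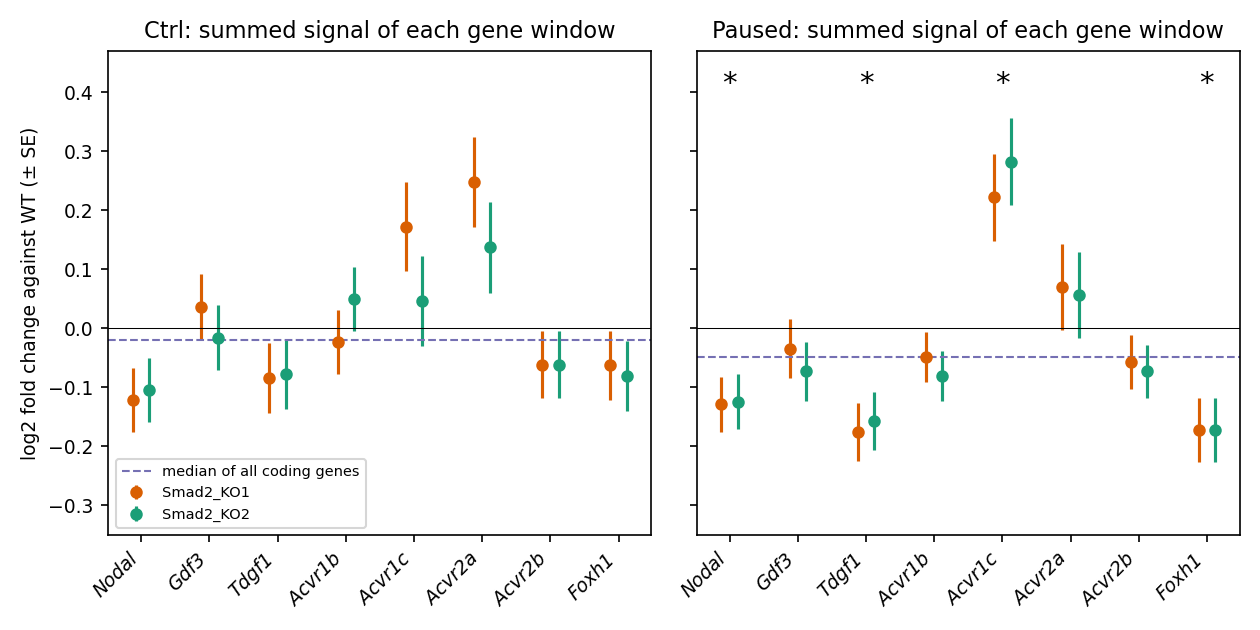
log2 fold change of the summed signal of each gene window (gene body and 20 kb on each side) against WT, with its SE, for Smad2_KO1 and Smad2_KO2. The dashed line is the median of all coding genes' windows and asterisks mark the 4 Paused windows called in both lines, of which Nodal, Tdgf1 and Foxh1 lie below 0 and Acvr1c above.

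Other genes of the pathway were counted in the same way, in 4 lists. The 8 inhibitors and co-ligands (such as Lefty1, Lefty2 and Cer1) had 1 higher and 10 lower of 102 tested intervals in Ctrl and 6 higher and 11 lower of 94 in Paused. The 2 convertases Furin and Pcsk6, which cleave the ligand precursors, had 4 higher and 1 lower of 66 in Ctrl and 12 higher and 2 lower of 62 in Paused. The 6 transducers and cofactors (Smad2 itself among them, with Smad3 and Smad4) had 3 higher and 3 lower of 121 in Ctrl and 5 higher and 3 lower of 123 in Paused. At the targeted gene Smad2, 2 intervals were called higher in Paused and 0 in Ctrl. The 4 feedback genes (such as Smad7 and Skil) had 1 higher and 3 lower of 84 in Ctrl and 1 higher and 5 lower of 89 in Paused. Over all intervals 3.95% were higher and 3.2% lower in Ctrl, and 9.01% and 4.92% in Paused.

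The member interval with the largest change in Paused, Acvr2a at 39.8 kb, was most like the strongest intervals of Abcg3, Zfp758 and Bsnd over the 12 libraries (Pearson r of log2 signal 0.943, 0.942 and 0.942, the highest of 17930 genes). In Ctrl the largest by the same measure was Acvr2a at 54.8 kb (1.08, against 1.07 for Acvr1c at 18.4 kb), most like those of Vmn1r86, Defb26 and Mbl2 (0.9, 0.895 and 0.878, of 18081 genes). For Nodal at 11.8 kb before the start, chosen after its values were seen, the nearest were Ankrd22, Rbks and Sprr1a in Ctrl (0.949, 0.943 and 0.942) and Casr, Kirrel and Lhx4 in Paused (0.962, 0.945 and 0.945). These correlations share the 12 libraries and their depth and are the highest of many, so they describe likeness only. Both Acvr2a intervals passed the filter for testing through their KO libraries.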

How the data were processed

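ATAC-seq libraries (paired 150-base reads) came as 1 table per treatment. Per the submitters' processing notes, the authors used FastQC, Trim Galore, Bowtie2 2.4.1, MACS3 3.0.3 and DiffBind 3.16.0 with build mm10; the role and settings of each are not given in the sources used here. The deposited signal values are reads per 201-base interval divided by 1 factor per library: in every library 100.0% of values fell on whole steps (tolerance 0.011), against at most 2.93% by chance. The authors' log2 fold columns and their p-value and FDR columns were deposited as made by them and are quoted as theirs only.

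The test here was limma 3.58.1 (R 4.3.3) on log2(signal + 1), for intervals with at least 10 in at least 4 of 12 libraries. Intervals low in WT could thus be tested only where KO libraries were high. The 12 libraries of a treatment shared 1 fit with line as the only factor, and Benjamini-Hochberg adjustment ran over all tested intervals, or all coding genes for windows. The fits were checked on simulated data with 100 changed features of each size. Of intervals with a true log2 change of 0.5, 2% (Ctrl) and 1% (Paused) were called in both lines, and with a change of 1, 62% and 55%. For gene windows these shares were 22% and 20%, and 97% and 98%. Far fewer features were changed there than the 7.15% (Ctrl) and 13.9% (Paused) of real intervals that were called, and 1 fixed spread was used. The adjusted threshold was thus stricter than in the real fits, and these shares do not give their recovery. An interval without a call can still have changed. Genes came from RefSeq GRCm38.p6, a table without exons, so bodies are not divided into exons and introns. Promoter sequences are RefSeq's (GRCm38.p6), matched by symbol for 6 of 8 genes. The tables were normalized separately, so treatments were not tested against each other. Alternatives were other scalings, edgeR 4.0.16 and DESeq2 1.42.0 on recovered reads, pseudocount 0.1, no filter, a replicate block, other groupings and windows, and leaving out each library. Centring within level classes was chosen after seeing the data. Named were each gene's start-site and strongest intervals and its 3 calls of smallest p. The members, lists and rules were chosen with earlier results of these data known. The counts of a list of target genes are not reported here.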

Additional observations from a re-analysis of the deposited data

Results flagged for a closer look

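In 8 of 162 groups of 4 libraries, 1 library stood apart from the other 3 by Dixon's test; chance alone flags about 1 group in 20, or 8.1 here. At called intervals, Smad2_KO1 replicate 1 had 104.3 at Acvr2a 51.7 kb in Ctrl (the others 86.36 to 88.95), and in Paused Smad2_KO1 replicate 4 had 411.19 before Tdgf1 (351.57 to 353.47), Smad2_KO1 replicate 2 had 162.21 at Acvr1b 27.0 kb (115.21 to 119.21) and WT replicate 1 had 6.48 at Acvr2a 39.8 kb (5.3 to 5.39). At intervals without a call, WT replicate 2 had 103.01 at the inner Acvr1c start in Ctrl (93.09 to 93.99), and Smad2_KO2 replicate 4 had 321.62 at Acvr1b 50.1 kb in Paused (260.22 to 270.54). Among window sums, Smad2_KO1 replicate 2 had 1161.7 at Foxh1 in Ctrl (1421.5 to 1449.9), and WT replicate 1 had 2590.7 at Acvr1b in Paused (2229.4 to 2283.2).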

How the results depend on the processing

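Against 4 higher and 2 lower member intervals in Ctrl, the higher count was 2 with DESeq2 size factors, TMM factors, edgeR on recovered reads, the compared groups alone and centring within level classes, 0 with DESeq2 on recovered reads, 8 with KO libraries of 1 number averaged, and 11 with the 8 KO libraries as 1 group. The lower count was 4 with edgeR, 5 with the 8 KO libraries as 1 group, 1 with a fold of at least 0.5 (log2) or 10 kb each side, and 0 in gene bodies without extension. Against 9 higher and 8 lower in Paused, the lower count was 15 with size factors, TMM factors or edgeR, 13 with DESeq2, 16 with 1 KO group, 5 with level centring or where the member is the nearest coding gene, 1 with a fold of at least 0.5 and 0 in gene bodies; the higher count was 5 with DESeq2 and 18 with 1 KO group. Ctrl windows went from 0 to 1 with size factors, TMM factors or 1 KO group, and Paused windows from 4 to 6, all lower, with size factors or TMM factors, and to 0 with a fold of at least 0.5. Leaving out each library gave 1 to 4 higher and 1 to 3 lower in Ctrl, 6 to 9 higher and 4 to 11 lower in Paused, 0 windows in Ctrl and 1 to 4 in Paused, and 0 between the KO lines. Fewer libraries, fewer intervals or a stricter rule are part of several of these settings; the cause of the other shifts was not tested. Of all Ctrl intervals, 7.15% were called in the reported fit, 7.58% with size factors, 17.6% with 1 KO group and 4.08% with DESeq2. In Paused these shares were 13.9%, 14.7%, 28.7% and 8.89%. No named interval changed sign where it was called in the reported fit or in the alternative. Sign changes at intervals called in neither were not counted. Of 874 values for 38 named intervals, 768 kept their side of the threshold, 74 lost a call and 32 gained one. Libraries of the same number correlated by 0.03 (Ctrl) and 0.05 (Paused) on average over all pairs of lines, and by 0.00818 to 0.109 (Ctrl) and 0.034 to 0.187 (Paused) between the KO lines alone. Libraries of different numbers averaged -0.009 (Ctrl) and -0.017 (Paused). Since not every pair of the same number exceeded 0.1, the reported fit did not use the numbers as pairs. It treats the KO libraries of 1 number as separate libraries, although the chi-square test above placed most of them nearest to each other. A replicate block gave 4 higher and 2 lower in Ctrl, 10 higher and 10 lower in Paused, and 0 and 4 windows. At the weakest called intervals few reads per library limit the precision.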
